A study of Mus musculus with 3 samples.

Results

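The genes described here encode the B7 family ligands read by PD-1 and by the CD28 family of T cell receptors. The 6 members were taken by symbol from the list of 32285 genes in the count matrices: Cd274 (the protein is PD-L1), Pdcd1lg2 (PD-L2), Cd80 and Cd86 (B7-1 and B7-2), Icosl (the ligand of ICOS) and Cd276 (B7-H3). The rule names symbols only. Each symbol was present once, and each gene had at least 1 UMI (unique molecular identifier, 1 counted RNA molecule) in every library.

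A T cell that meets its antigen also reads ligands of the B7 family on the other cell. CD80 and CD86 on antigen presenting cells engage CD28, which supports activation, and CTLA-4, which restrains it. ICOSL engages ICOS, and PD-L1 and PD-L2 engage the inhibitory receptor PD-1. B7-H3 is a relative on many tumor and stromal cells whose receptor is less settled. Cd274 is a known target of interferon gamma signaling through JAK kinases. The counts below are of RNA, and they say nothing of how much protein was at the cell surface.

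Tumors of B16-F10, a mouse melanoma line, grown in C57BL/6J mice aged 6 to 8 weeks were profiled by single-cell RNA-Seq with a 10x Genomics V(D)J kit of v1.1 chemistry. The study asked what happens in the tumor when Mib2, a ubiquitin ligase gene, is targeted by shRNAs. There was 1 library of tumors carrying a control shRNA (shCtrl) and 2 of tumors carrying shRNAs to Mib2, labelled shMib2.1 and shMib2.2 and called shMib2 replicates 1 and 2 below. Each library came from tumors pooled from 3 mice, so the libraries are the replicates, and the labels number the shRNAs to Mib2 separately. All groups shared the cell line, the host strain and the dissociation. The promoter driving the shRNAs, and whether each line was 1 clone, are not given in the sources used here.

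After filters, 8195 cells of shCtrl, 7981 of shMib2 replicate 1 and 6859 of shMib2 replicate 2 were kept. Between 20 and 30 barcodes were shared by any pair of libraries. B16-F10 cells, named by 9 of 9 detected pigment cell markers, were 7605, 6051 and 3608 of the kept cells. The shCtrl library stood apart in holding few cells of other kinds: it had 74 T cells against 500 and 749, 7 dendritic cells against 76 and 120, 6 fibroblasts against 255 and 226, and 2 mononuclear phagocytes against 18 and 61. Levels in those shCtrl cells therefore rest on few UMIs. Mib2 itself was at 2.47 CPM (95% interval 2.26 to 2.69) in B16-F10 cells of shCtrl, 3.14 (2.87 to 3.43) in shMib2 replicate 1 and 2.73 (2.48 to 2.99) in shMib2 replicate 2. It was not lower in either library labelled shMib2 (log2 fold change 0.21, SE 0.12, edgeR adjusted p = 0.455), so every direction below is between libraries by their labels. Levels are given as CPM, the UMIs of a gene per 1000000 UMIs of the same cells, with exact Poisson 95% intervals that cover counting error only.

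The promoters of 3 members are shown because their RNA was divided among the cells in different ways. Cd274 had its highest levels in myeloid cells and, among B16-F10 cells, in the interferon-responding ones. Most Pdcd1lg2 UMIs of the libraries labelled shMib2 were in T and NK cells. Most Cd276 UMIs were in B16-F10 cells, with a higher level in fibroblasts. Each promoter is the 250 bases before the RefSeq start of the gene (GRCm38.p6), read along the gene's own strand. Capitals mark the core of the interferon regulatory factor (IRF) motif, AANNGAAA, on either strand. The Cd274 window lies at chr19:29367188-29367437 on the plus strand, the Pdcd1lg2 window at chr19:29410669-29410918 on the plus strand and the Cd276 window at chr9:58555034-58555283 on the minus strand.
Cd274: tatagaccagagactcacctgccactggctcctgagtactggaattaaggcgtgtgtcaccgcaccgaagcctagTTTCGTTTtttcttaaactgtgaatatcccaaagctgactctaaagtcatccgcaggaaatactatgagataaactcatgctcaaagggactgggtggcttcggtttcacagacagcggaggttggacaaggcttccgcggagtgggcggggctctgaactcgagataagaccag
Pdcd1lg2: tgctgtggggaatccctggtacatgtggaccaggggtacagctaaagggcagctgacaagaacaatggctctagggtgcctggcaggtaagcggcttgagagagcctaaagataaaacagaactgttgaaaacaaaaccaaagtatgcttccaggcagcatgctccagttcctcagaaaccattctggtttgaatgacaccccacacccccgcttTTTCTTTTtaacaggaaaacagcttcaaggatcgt
Cd276: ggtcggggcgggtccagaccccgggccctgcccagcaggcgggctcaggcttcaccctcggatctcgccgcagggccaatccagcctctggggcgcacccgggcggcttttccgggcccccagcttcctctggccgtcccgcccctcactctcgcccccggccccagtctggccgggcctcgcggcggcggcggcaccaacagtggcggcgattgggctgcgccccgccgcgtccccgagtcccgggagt

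Cd274 and Pdcd1lg2 each held 1 IRF core, starting 175 and 35 bases before the start, and Cd80, Icosl and Cd276 held none. Of 32851 mouse promoters of the same length 21.3% held this core, as did 11 of the 19 interferon response genes with an entry. The kappa B motif of NF-kB, searched on both strands as was the IRF core, was in 45.8% of all promoters. It occurred 9 times in the Cd276 window, which is 77.6% G and C, with some of these places overlapping. Cd80 and Icosl held it 2 times each, Pdcd1lg2 1 time and Cd274, whose window is 50.4% G and C, not at all. A match says only that the letters are there.

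In GRCm38 the PD-1 ligand genes are neighbors on the plus strand of chromosome 19, Cd274 at chr19:29367455-29388095 and Pdcd1lg2 at chr19:29410919-29471161. Cd80 (chr16:38455561-38496335, plus strand) and Cd86 (chr16:36603869-36666081, minus strand) share chromosome 16. Icosl lies at chr10:78069302-78083913 on the plus strand, and Cd276 at chr9:58524298-58555437 on the minus strand. The Cd276 window shown above lies inside this span of the gene. Each of the PD-1 ligand genes overlaps an annotated antisense RNA. The one inside Cd274 (ENSMUSG00000117964) had 5, 3 and 2 UMIs in B16-F10 cells of shCtrl and shMib2 replicates 1 and 2, an order used for all triplets below. The one at the end of Pdcd1lg2, A930007I19Rik, had 311, 272 and 283 UMIs there and at most 6 in T or NK cells of any library.

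**Figure D1:**
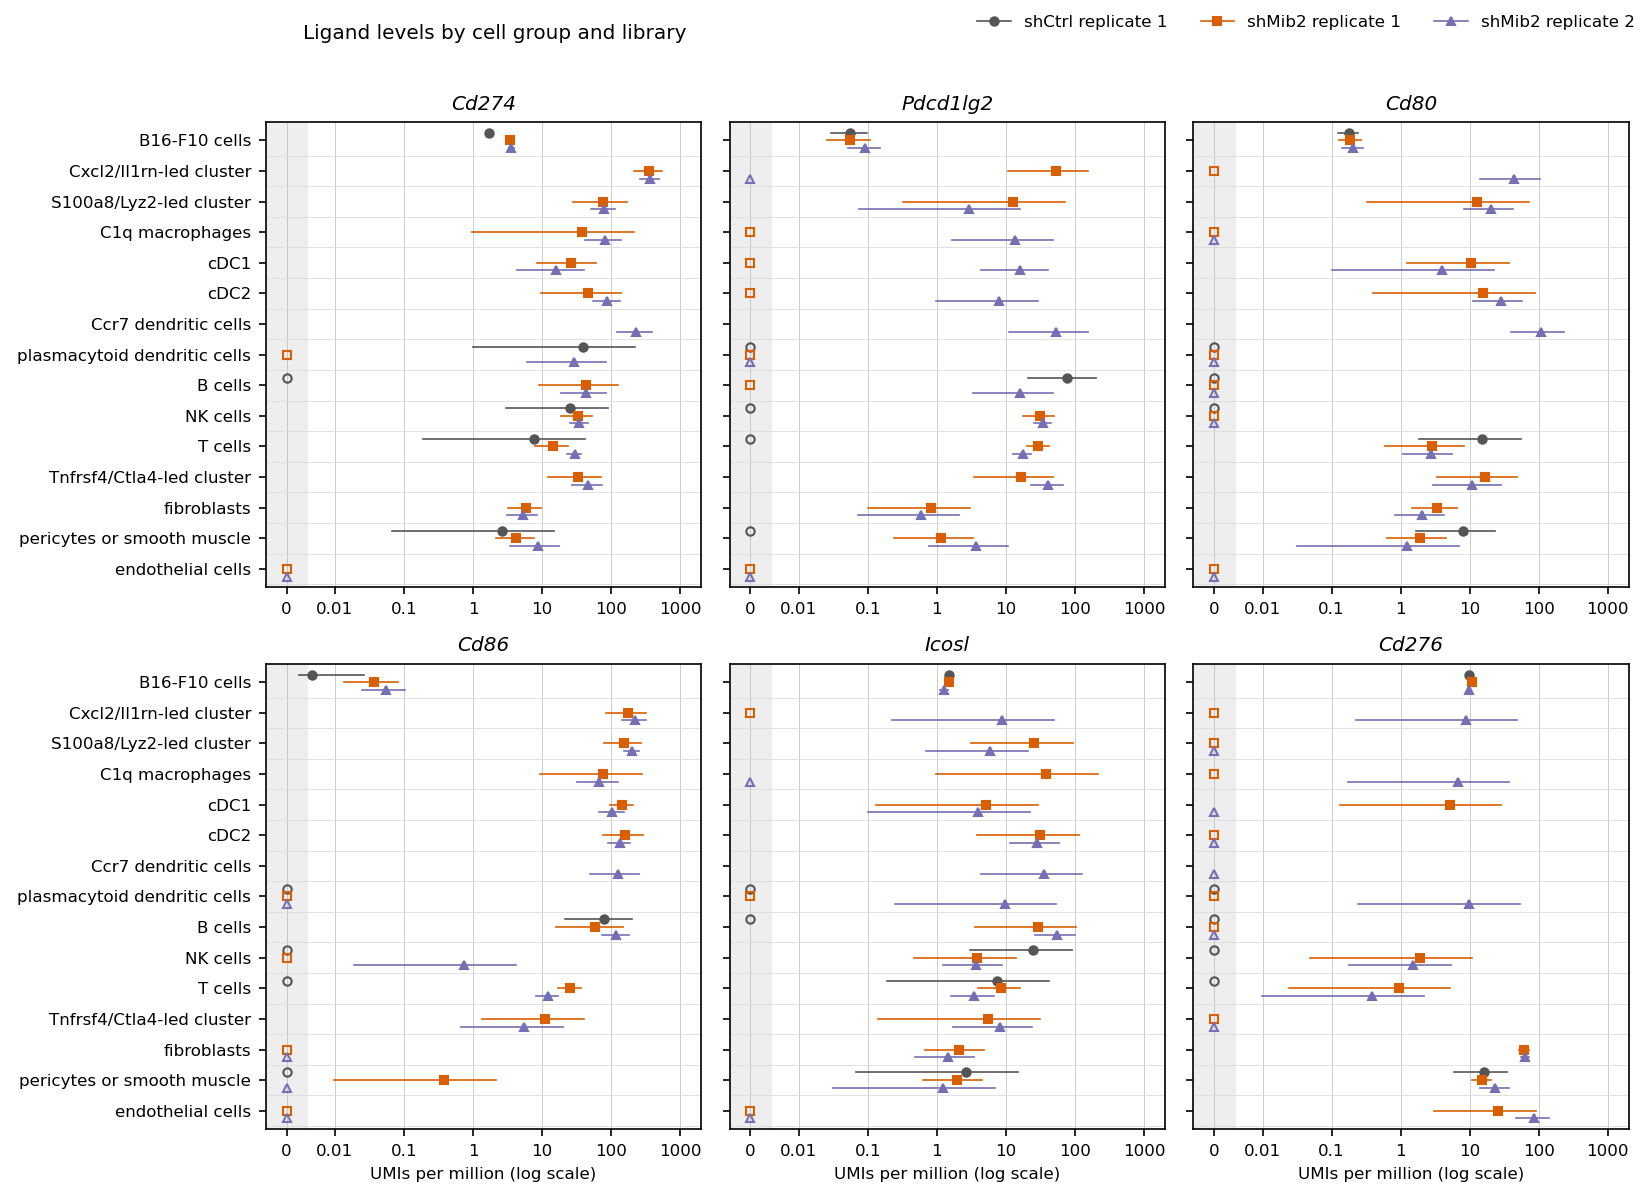
Level (CPM, log scale) of each ligand gene by cell group and library, with exact Poisson 95% intervals, where open symbols in the grey band are groups with 0 UMIs and groups under 10 cells are left out. Among the groups plotted with a UMI, Cd274 runs from 1.69 in B16-F10 cells of shCtrl to 370 in the Cxcl2/Il1rn-led cluster of shMib2 replicate 2, Cd86 is at 0 in fibroblasts, and Cd276 is highest in fibroblasts and endothelial cells.

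The ligand genes were divided among the cells of the tumor in different ways. Of all Cd276 UMIs, 98.7%, 88.8% and 84.3% were in B16-F10 cells, and for Icosl the shares were 98.2%, 87.5% and 81.4%. For Cd274 they were 97.8%, 82.4% and 65.8%. Cd86 and Pdcd1lg2 lay mostly outside the melanoma cells of the libraries labelled shMib2, with 5.41% and 3.83% of Cd86 UMIs and 12.5% and 10.6% of Pdcd1lg2 UMIs in B16-F10 cells. Dendritic cells held 42.3% and 28.1% of Cd86 there, and T cells 43.1% and 31.9% of Pdcd1lg2. These shares move with how many cells of each kind were captured. Over all kept cells, Cd274 had 370, 677 and 894 UMIs, Cd276 2135, 1941 and 1923, Icosl 327, 273 and 258, Cd86 8, 111 and 235, Pdcd1lg2 17, 72 and 141, and Cd80 44, 54 and 80.

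Cell classes were compared with B16-F10 cells in 1 edgeR fit over sums per class and library, in which only Cd274, Cd86 and Cd276 had enough UMIs to be tested. Of these 3, 2 were higher and 1 lower in T cells, where 35.1% of all genes passed as higher and 68.6% in either direction. In dendritic cells also 2 were higher and 1 lower, against 30.7% of genes higher and 56.7% in either direction. In NK cells 1 was higher and 1 lower (32.7% and 65.8%). In B cells 2 were higher and none lower (24.1% and 49.9%), as in mononuclear phagocytes (15.1% and 29.3%). In fibroblasts (36.9% and 64%), pericytes or smooth muscle cells (21.2% and 34.2%), plasmacytoid dendritic cells (22.4% and 43.1%) and endothelial cells (15.8% and 28.8%) 1 was higher and none lower. In erythrocytes none passed (5.34% and 12%). With 3 members and such high background shares, the counts describe the members and set nothing apart. Sums of under 10 cells were left out, which dropped the shCtrl dendritic cells, phagocytes, fibroblasts and endothelial cells, so these classes had 2 libraries each. A sum's level is relative to all RNA of its cells, and T cells had median totals of 1479, 1437 and 2603 UMIs against 26347, 24851 and 43692 in B16-F10 cells.

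Cd274, the inhibitory ligand of PD-1, was highest in an unnamed myeloid cluster led by Cxcl2 and Il1rn, which also carried Arg1. There it was at 164 CPM (2 UMIs in 4 cells) in shCtrl, 352 (215 to 544; 31 cells) in shMib2 replicate 1 and 370 (266 to 500; 34 cells) in shMib2 replicate 2, with a UMI in 51.6% (34.8 to 68.0) and 52.9% (36.7 to 68.5) of cells of the libraries labelled shMib2. The libraries labelled shMib2 overlapped within counting error. Ccr7 dendritic cells, the mature migrating state, came next, at 290 (125 to 572) in 8 cells and 232 (123 to 396) in 18 cells, and their intervals overlap those of the Cxcl2/Il1rn-led cluster. The cluster led by S100a8 and Lyz2 was at 77.3 and 78.8, and the C1q macrophages, the only state of mononuclear phagocytes named here, at 38.3 (1 UMI) and 80.9 (41.8 to 141), or 28.4 in the latter library as a mean over cells. Among other dendritic cells, cDC2 (the CD4 T cell priming subset) were at 47.0 and 88.3, and cDC1 (the cross-presenting subset) at 25.9 and 15.9. These neighbors in the order had overlapping intervals in at least 1 library.

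Lymphocytes carried Cd274 at lower levels than the Cxcl2/Il1rn-led cluster and the Ccr7 dendritic cells. NK cells were at 25 (2 UMIs), 32.8 (19.1 to 52.6) and 34.3 (25.1 to 45.8). B cells were at 0, 43.6 (3 UMIs; 8.99 to 127) and 43.4 (8 UMIs; 18.7 to 85.5). T cells were at 7.55 (1 UMI), 14.2 (7.94 to 23.4) and 29.5 (23.3 to 36.9). The intervals of the T cells of the libraries labelled shMib2 overlap only slightly. A Tnfrsf4/Ctla4-led cluster, which carried Foxp3, the regulatory T cell factor, was at 0, 33.1 and 46.6. Fibroblasts were at 5.84 and 5.31 in the libraries labelled shMib2, pericytes or smooth muscle cells at 2.66, 4.25 and 8.65, and endothelial cells had 0 UMIs in every library, which allows up to 38.1 and 18.1 CPM in the libraries labelled shMib2. In the fit against B16-F10 cells Cd274 was higher by 4.40 on the log2 scale in dendritic cells (SE 0.38, edgeR adjusted p = 2.31e-11), by 4.37 in mononuclear phagocytes (SE 0.65, adjusted p = 3.53e-06) and by 3.67 in B cells (SE 0.66, adjusted p = 3.35e-05). NK cells were higher by 3.43 (SE 0.36, adjusted p = 8.64e-10) and T cells by 2.86 (SE 0.33, adjusted p = 6.83e-09). Plasmacytoid dendritic cells were higher by 2.74 (SE 1.00, adjusted p = 0.0266), a call that did not hold without the shCtrl library (adjusted p = 0.147) or without the library block (adjusted p = 0.0605). Fibroblasts had a log2 difference of 0.87 that did not pass (SE 0.39, adjusted p = 0.0515; 0.0272 without the block) and pericytes one of 0.71 (adjusted p = 0.226).

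B16-F10 cells held far more UMIs each than T cells. A Cd274 UMI was found in 1.35% of T cells and 4.35% of B16-F10 cells in shCtrl and in 2.6% and 7.62% in shMib2 replicate 1. In shMib2 replicate 2 a Cd274 UMI was found in 9.08% (Wilson 95% interval 7.22 to 11.4) of T cells and in 10.0% (9.07 to 11) of B16-F10 cells, at median totals of 2603 and 43692 UMIs. With each cell thinned to 1000 UMIs, which left out 26 T cells and 5 B16-F10 cells as too shallow, the shares were 2.77% and 0.305%. In the T cells of the libraries labelled shMib2 Cd274 had 15 and 76 UMIs and Cd276 had 1 and 1. The 82 T cells with a Cd274 UMI had 1126 CPM of the class II genes H2-Aa, H2-Ab1, H2-Eb1 and Cd74 summed, against 121 in the other 1241 T cells. Their summed pigment cell markers were at 684 CPM against 789, and their summed phagocyte markers at 768 against 800. Their median total was 3169.5 UMIs against 2021. The phagocyte list holds Ly6c2, a leading gene of a T cell cluster, and was at 1555, 1376 and 1319 CPM in B16-F10 cells. It therefore does not separate phagocyte RNA from that of other cells here. The part of doublets or of free RNA in the T cell counts was not tested.

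In B16-F10 cells Cd274 had a higher level in both libraries labelled shMib2, by a difference that missed the threshold. It was at 1.69 CPM (1.52 to 1.88; 362 UMIs) in shCtrl, 3.48 (3.20 to 3.78; 558 UMIs) in shMib2 replicate 1 and 3.57 (3.29 to 3.88; 588 UMIs) in shMib2 replicate 2. Both libraries labelled shMib2 lay above shCtrl, beyond counting error, and within counting error of each other. The log2 fold change was 1.01 (SE 0.11), with an unadjusted p of 0.000405 and an edgeR adjusted p of 0.0760 over 15695 genes. A UMI of Cd274 was found in 4.35% (Wilson 95% interval 3.92 to 4.83), 7.62% (6.98 to 8.31) and 10.0% (9.07 to 11) of B16-F10 cells, and, with each cell thinned to 1000 UMIs, in 0.158%, 0.430% and 0.305%. The call depended on the analysis: adjusted p was under 0.05 in 5 of 12 alternatives, from 0.000735 (DESeq2 Wald test) to 1.00 (a strict marker gate that kept few cells). The log2 fold change lay between 0.50 and 1.10 in all alternatives. With 1 library against 2, the p-values rest on the spread between the 2 libraries labelled shMib2, and none was measured for shCtrl. The shRNA and the tumor pool cannot be told apart.

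Of the 5 members tested in B16-F10 cells, 0 passed, beside 45 of all 15695 genes (0.287%), all of them higher by edgeR. At an unadjusted p under 0.05, 1 member (Cd274) and 2431 genes lay, and DESeq2 called 254 genes, 190 higher and 64 lower. Cd276 was at 9.86 (9.44 to 10.3), 10.7 (10.2 to 11.3) and 9.86 CPM (9.39 to 10.4), with a log2 fold change of 0.02 (SE 0.06, edgeR adjusted p = 0.889). Icosl was at 1.5, 1.49 and 1.28 CPM (−0.16, SE 0.14, adjusted p = 0.614), Cd80 at 0.178, 0.187 and 0.207 (0.10, SE 0.31, adjusted p = 0.890) and Pdcd1lg2 at 0.0562, 0.0561 and 0.0912 (0.35, SE 0.57, adjusted p = 0.792). Cd86, with 1, 6 and 9 UMIs, was too low to test. The median log2 fold change of the 5 was 0.10, beside 0.01 over all genes.

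The interferon-inducible genes of the same cells stood higher in the libraries labelled shMib2. Of 27 interferon response genes tested, 17 rose and 0 fell, with a median log2 fold change of 1.98. Psmb8, an immunoproteasome subunit, rose by 3.63 (SE 0.07, edgeR adjusted p = 0.00236; 1.39, 17.8 and 17.8 CPM) and Psmb9, its partner, by 2.18 (SE 0.07, adjusted p = 0.00785). Iigp1 and Ifi47, interferon-inducible GTPases, rose by 3.02 (SE 0.11, adjusted p = 0.01) and 2.50 (SE 0.11, adjusted p = 0.0173). Of 8 genes of antigen presentation to CD4 T cells, 5 rose and 0 fell (median 3.18): Cd74, the invariant chain, by 3.36 (adjusted p = 0.00236), and H2-Aa, H2-Ab1 and H2-Eb1, class II chains, by 3.87, 3.32 and 3.03 (adjusted p = 0.00376, 0.00469 and 0.0123), with H2-DMa the fifth. Of the genes of interferon gamma signaling, Socs3, a feedback inhibitor, was at 10.6, 16.6 and 15.6 CPM (adjusted p = 0.0524), Irf9 at 6.41, 9.60 and 9.64 (adjusted p = 0.0795) and Irf1 at 3.78, 9.52 and 11.9 (adjusted p = 0.102). None of these 3 passed, and Irf1 is also in the interferon response list. None of 6 NF-kB factors passed (median −0.02). Of 7 other B7 and butyrophilin genes, 1 could be tested and did not pass: Vsir, with 0, 7 and 18 UMIs. Of the receptors, Ctla4 (3, 29 and 27 UMIs) and Cd28 (4, 21 and 18) were tested in B16-F10 cells and neither passed. B16-F10 cells had 0, 25 and 26 UMIs of Ifng, the lymphocyte cytokine, and their summed T cell markers were at 1.27, 3.46 and 3.46 CPM and NK cell markers at 0.197, 1.43 and 1.26. Their summed B cell markers were at 4.66, 4.01 and 4.27 CPM, dendritic cell markers at 15.2, 15.7 and 15 and phagocyte markers at 1555, 1376 and 1319. The part of RNA of other cells in these levels was not tested. The 10 T cell markers were all detected in the libraries labelled shMib2 and 1 was at 0 in shCtrl, and 3 NK cell markers were at 0 in shCtrl. An alternative added after seeing the data kept only B16-F10 cells with no UMI of a T or NK cell marker or of Ptprc. There the Cd274 difference was as large (log2 1.01, edgeR adjusted p = 0.0406). Cells that hold RNA of other cells without a UMI of these genes stay in. The part of such RNA in the Cd274 level was therefore not tested.

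**Figure D2:**
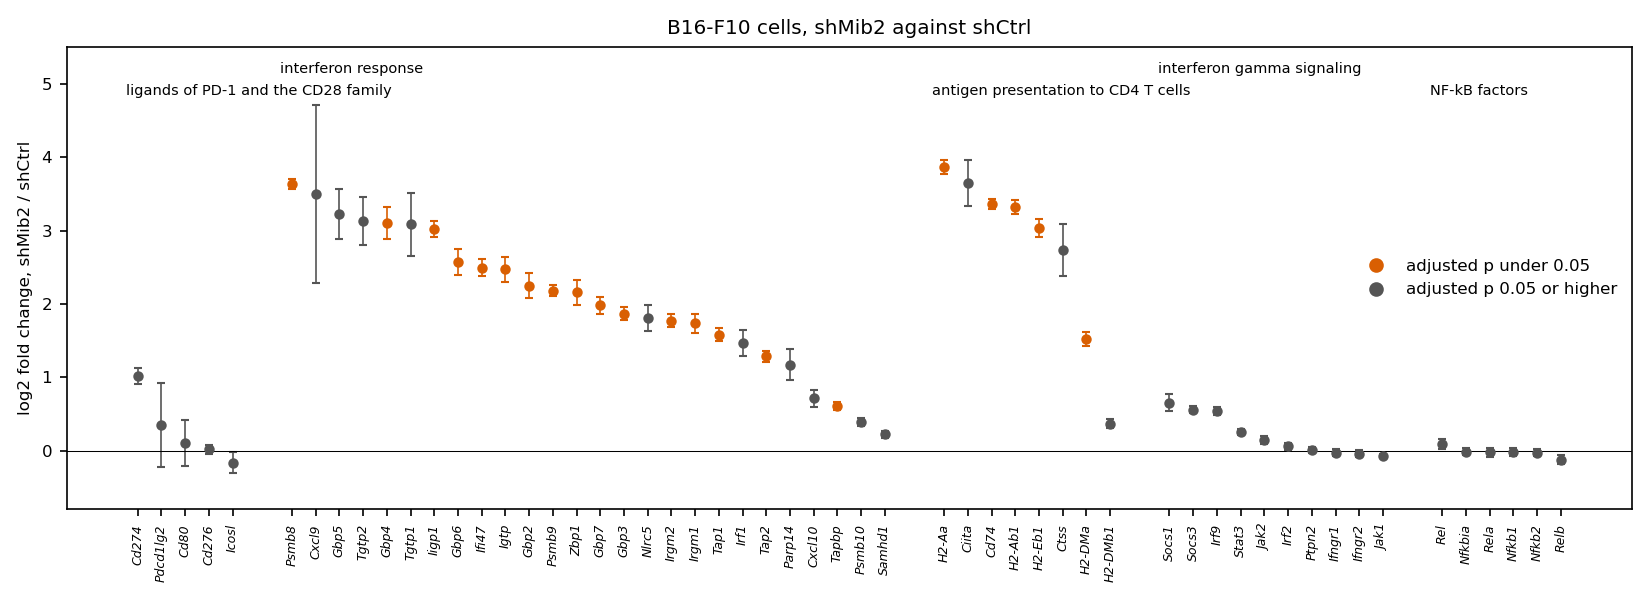
Log2 fold change, shMib2 against shCtrl, in B16-F10 cells (bars are SE; 1 library against 2), by gene list, with adjusted p under 0.05 in orange, Irf1 drawn under interferon response and Ifng, at 0 UMIs in shCtrl, left out. Cd274 sits at 1.01 in grey, near the lower end of the interferon response genes (median 1.98), while Cd80, Cd276 and Icosl lie near 0.

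Within the melanoma cells the level of Cd274 was highest in those with the most interferon response RNA, least clearly in shCtrl. B16-F10 cells were divided into quartiles by the summed CPM of the interferon response list, with bounds taken over all 3 libraries at 68.6, 127.6 and 225.2 CPM. In the highest quartile Cd274 was at 2.65 CPM (2.16 to 3.22) in shCtrl, 6.23 (5.57 to 6.95) in shMib2 replicate 1 and 8.69 (7.86 to 9.57) in shMib2 replicate 2. In the third quartile it was at 1.45, 2.12 and 1.60, and in the second at 1.34, 1.65 and 1.54. In the lowest it was at 1.66, 2.82 and 1.39. The highest quartile was thus 1.60, 2.21 and 6.24 times the lowest, and 1.80, 2.66 and 5.34 times after each cell was thinned to 5000 UMIs. Of the 362 Cd274 UMIs of shCtrl, 102 were in the highest quartile and 97 in the lowest. In shMib2 replicate 1 the lowest quartile (2.26 to 3.47) lay above the second (1.26 to 2.12). Cells within 10% of the upper bound numbered 526, 457 and 264, so the quartiles are ranges of a score and not cell types. The median score in the highest quartile was 330, 424 and 438 CPM, so the quartile did not hold equal scores in the libraries. Cd276 was 1.36, 1.04 and 1.20 times higher in the highest than in the lowest quartile, and Icosl 1.13, 1.66 and 1.21 times. After thinning the Icosl ratios were 0.991, 0.848 and 0.809, below 1, so no direction is given for Icosl, and the Cd276 ratios were 1.14, 1.08 and 1.08.

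**Figure D3:**
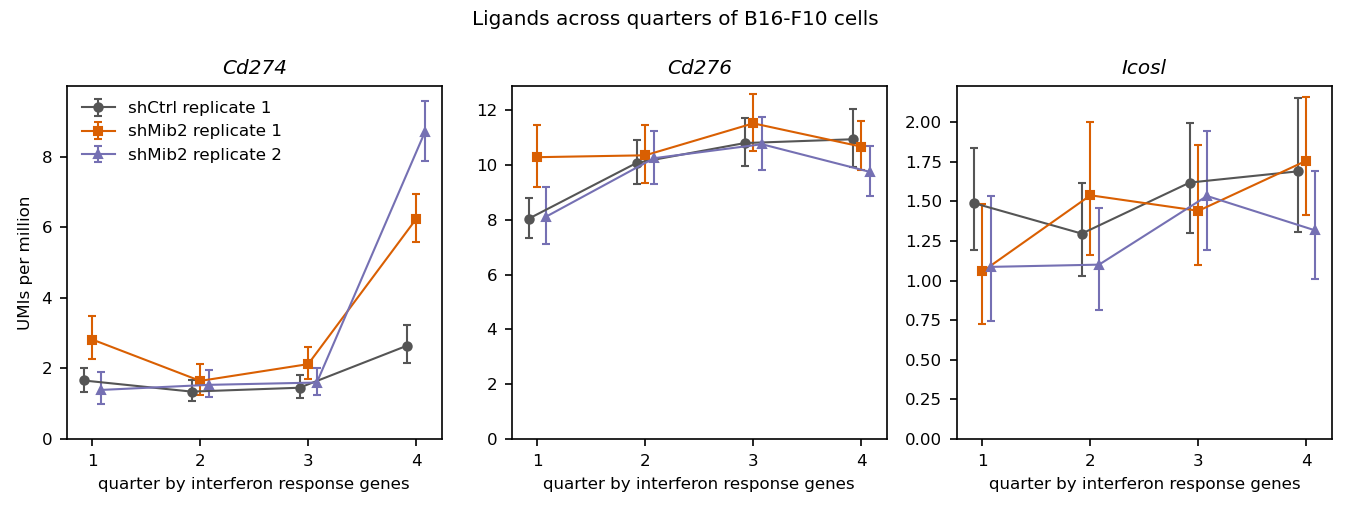
Level (CPM) of Cd274, Cd276 and Icosl in quartiles of B16-F10 cells ordered by summed interferon response genes (1 is lowest), by library, with exact Poisson 95% intervals. Cd274 is between 1.34 and 2.82 in the lower quartiles and reaches 2.65, 6.23 and 8.69 in the highest, while Cd276 and Icosl stay within narrower ranges.

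Clusters of B16-F10 cells were also compared. The members took no part in the clustering, but the leading genes of the interferon cluster overlap the list behind the quartiles in the same cells, so it is no separate support. A B16-F10 cluster led by Ifit1, Iigp1 and Ifit3 (243, 621 and 392 cells) carried Cd274 at 6.05, 11.6 and 14.6 CPM, against 1.53, 2.41 and 2.06 in all other B16-F10 cells, which is 3.95, 4.80 and 7.08 times. It held 12.7%, 38.7% and 49.3% of the Cd274 UMIs of B16-F10 cells. Without it, in an alternative added after seeing the data, the log2 fold change of Cd274 between the libraries was 0.50 (SE 0.14, edgeR adjusted p = 0.251). Next in order, over all libraries, was the cluster led by Pgf, Nppb and Ero1l, the last a gene of the hypoxic response, at 3.86 (3.31 to 4.47), and lowest the cluster led by Cdc6 and Uhrf1, genes of DNA replication, at 1.02. Cd276 ran differently. It was at 15.8 (14.7 to 16.9) in the Cdc6/Uhrf1-led cluster and at 4.54 (3.94 to 5.21) in the Pgf/Nppb/Ero1l-led one, and the libraries did not overlap between these clusters (15.8, 15.4 and 16.2 against 3.93, 4.69 and 5.05). In the Ifit1-led cluster Cd276 was at 11.2, 10.8 and 11 against 9.81, 10.7 and 9.71 outside it. Icosl ranged from 0.464 (Fgf21-led cluster) to 1.95 (Cdc6/Uhrf1-led cluster). Cells with UMIs of both Cd274 and Cd276 numbered 77, 105 and 107, beside 75.2, 107 and 116 from the product of the separate shares.

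**Figure D4:**
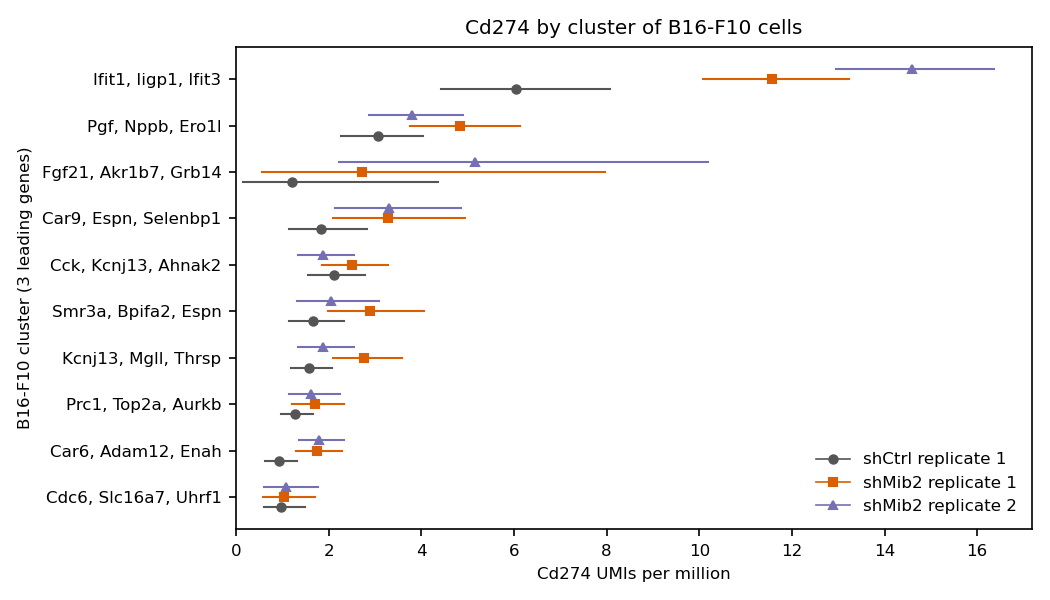
Cd274 level (CPM) in each cluster of B16-F10 cells, named by its leading genes, by library, with exact Poisson 95% intervals. The Ifit1-led cluster is at 6.05, 11.6 and 14.6, to the right of the other clusters in each library.

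Pdcd1lg2, the second PD-1 ligand gene, was found in the libraries labelled shMib2 mainly in T and NK cells. In shCtrl 12 of its 17 UMIs (70.6%) were in B16-F10 cells and 4 in B cells, and T and NK cells had 0. B cells were at 77.8 CPM (4 UMIs; 21.2 to 199), 0 and 16.3 (3 UMIs). T cells carried it at 0, 29.3 (19.9 to 41.6; 31 UMIs) and 17.5 CPM (12.7 to 23.4; 45 UMIs), and NK cells at 0, 30.9 (17.7 to 50.2) and 34.3 (25.1 to 45.8). The 74 T cells and 46 NK cells of shCtrl had 0 UMIs, which allows up to 22.7 and 37.5 CPM. The T cell limit lies below the level of shMib2 replicate 1 and above that of shMib2 replicate 2. The log2 fold changes, 7.75 in T cells (SE 3.38, edgeR adjusted p = 0.421) and 7.43 in NK cells (SE 3.38, adjusted p = 0.630), did not pass. Their size rests on the 0 UMIs of shCtrl, so a difference between the labelled groups was not resolved. The Tnfrsf4/Ctla4-led cluster was at 52.8 (1 UMI), 16.5 and 41.1 (23.0 to 67.9), with a UMI in 17.3% (10.4 to 27.4) of its cells in shMib2 replicate 2. In T cells a UMI was found in 5.80% (4.07 to 8.21) and 5.47% (4.06 to 7.34) of cells of the libraries labelled shMib2, in fibroblasts in 0.392% and 0.885%, and in B16-F10 cells in 0.149% and 0.416%. Fibroblasts and B16-F10 cells, with median totals of 8161 and 13575 and of 24851 and 43692 UMIs, were thus below T cells despite being deeper, and after thinning to 1000 UMIs the shares were 3.03% and 1.24% in T cells, 0% in fibroblasts and 0.0165% and 0% in B16-F10 cells. Dendritic cells were at 10.5 and 16.2 CPM, their Ccr7 state at 109 and 53.4 (3 UMIs each), and plasmacytoid dendritic and endothelial cells at 0. The 70 T cells with a Pdcd1lg2 UMI had summed class II genes at 919 CPM against 142 in the others, and the 55 NK cells 421 against 149, with median totals of 3699 against 2033 and 2472 against 1809 UMIs. The part of these in the counts was not tested.

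Cd80, a ligand of CD28 and CTLA-4, had few UMIs in every group. B16-F10 cells held 86.4%, 55.6% and 42.5% of them, at 0.178, 0.187 and 0.207 CPM. Dendritic cells carried it at 14.1 (3.83 to 36.0; 4 UMIs) and 25.1 CPM (13.7 to 42.2; 14 UMIs) in the libraries labelled shMib2, and their Ccr7 state at 36.3 (1 UMI) and 107 (6 UMIs). The S100a8/Lyz2-led cluster was at 12.9 and 20.4, and the Cxcl2/Il1rn-led cluster at 0 and 44.0 (5 UMIs). The Tnfrsf4/Ctla4-led cluster was at 0, 16.5 and 11 and T cells at 15.1 (2 UMIs), 2.84 and 2.72. Fibroblasts were at 13.1 (1 UMI), 3.34 (8 UMIs) and 2.06 (7 UMIs) and pericytes or smooth muscle cells at 7.98 (3 UMIs), 1.93 (5 UMIs) and 1.24 (1 UMI). No UMI of Cd80 was seen in B cells, NK cells, plasmacytoid dendritic cells, mononuclear phagocytes or endothelial cells. The 330 and 499 NK cells of the libraries labelled shMib2 allow up to 5.79 and 2.24 CPM. With these counts the order of the myeloid groups was not resolved.

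Cd86, the other ligand of CD28 and CTLA-4, was found in dendritic cells, the unnamed myeloid clusters, B cells and T cells. The myeloid clusters led by S100a8 and by Cxcl2 were left unnamed because their leading genes held more markers of neutrophils than of mononuclear phagocytes. In shMib2 replicate 2 the S100a8/Lyz2-led cluster held 68 Cd86 UMIs (28.9% of all) and dendritic cells 66 (28.1%), and T cells held 24.3% and 13.2% in the libraries labelled shMib2. Dendritic cells carried it at 165 (121 to 220) and 119 CPM (91.7 to 151) in the libraries labelled shMib2, with a UMI in 40.8% (30.4 to 52.0) and 31.7% (24.0 to 40.4) of cells. The 7 dendritic cells of shCtrl had 0 UMIs, which allows up to 222 CPM. By state, cDC1 were at 145 and 103, cDC2 at 157 and 132 and Ccr7 dendritic cells at 327 and 125. The Cxcl2/Il1rn-led and S100a8/Lyz2-led clusters were at 176 and 220 and at 155 and 198, with overlapping intervals, and C1q macrophages at 76.6 and 67.4. B cells were at 77.8, 58.1 and 119 (74.8 to 181). Fibroblasts had 0 UMIs in 255 and 226 cells, which allows up to 1.18% and 1.33% of cells with a UMI, NK cells 0, 0 and 1 UMI, and plasmacytoid dendritic cells 0. T cells were at 0, 25.5 (16.8 to 37.1) and 12 (8.18 to 17.1), and within them the Cd8b1/Cd8a/Cxcr6-led cluster was at 38.7 (24.6 to 58.1) and 14.9 (9.25 to 22.8) and the Ly6c2/Trdc/Cd69-led cluster at 8.62 and 8.55. The 49 T cells with a UMI had summed class II genes at 584 CPM against 200 in the others. Against B16-F10 cells, where Cd86 was nearly absent, the fitted log2 difference in T cells passed (edgeR adjusted p = 3.27e-14), and its size depends on the handling of the few UMIs in B16-F10 cells.

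In dendritic cells, phagocytes and the pair of unnamed myeloid clusters pooled, 94 of 475 cells had a UMI of Cd274, 146 of Cd86, 27 of Cd80, 20 of Icosl, 17 of Pdcd1lg2 and 3 of Cd276. Cd274 and Cd86 were found in the same cell 46 times, beside 28.9 from the product of the shares, Cd274 and Cd80 15 times beside 5.34, and Cd80 and Cd86 17 times beside 8.30. Within the Cxcl2/Il1rn-led cluster the first of these was 14 beside 11.7, and within the S100a8/Lyz2-led cluster 12 beside 7.40. Cells of 1 library and deeper cells share more UMIs of every gene, so these counts are a description.

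Icosl, the ligand of ICOS, was at a low and even level in B16-F10 cells, at 1.5 (1.34 to 1.68), 1.49 (1.31 to 1.69) and 1.28 CPM (1.11 to 1.46). B cells were at 0, 29.1 (2 UMIs) and 54.2 (26.0 to 99.7), and in the libraries labelled shMib2 Ccr7 dendritic cells were at 36.3 and 35.6 (1 and 2 UMIs), cDC2 at 31.3 and 28.1 (2 and 7 UMIs) and C1q macrophages at 38.3 (1 UMI) and 0. T cells were at 7.55, 8.51 and 3.50, NK cells at 25 (2 UMIs), 3.86 and 3.73, and fibroblasts at 2.09 and 1.47. Intervals of B cells, cDC2 and Ccr7 dendritic cells overlapped, so their order was not resolved.

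Cd276, which encodes B7-H3, was a gene of melanoma and stromal cells. Fibroblasts carried it at 65.4 (5 UMIs in 6 cells), 61.4 (51.8 to 72.1) and 64.3 CPM (56.0 to 73.4), and the 3 libraries lay within counting error of each other. Endothelial cells were at 25.4 (2 UMIs) and 84.7 (46.3 to 142) in the libraries labelled shMib2, and pericytes or smooth muscle cells at 16, 15.1 and 23.5. A UMI was found in 40.8% (34.9 to 46.9) and 55.8% (49.2 to 62.1) of fibroblasts and in 22.7%, 23.1% and 32.2% of B16-F10 cells, against 0.200% (0.0353 to 1.12) and 0.134% (0.0236 to 0.752) of T cells in the libraries labelled shMib2. After thinning to 1000 UMIs the shares in those libraries were 5.10% and 3.54% of fibroblasts, 1.22% and 1.08% of B16-F10 cells and 0.253% and 0.138% of T cells. Against B16-F10 cells, fibroblasts were higher by 2.83 on the log2 scale (SE 0.23, edgeR adjusted p = 1.76e-11), endothelial cells by 2.47 (SE 0.49, adjusted p = 0.000297) and pericytes or smooth muscle cells by 0.80 (SE 0.27, adjusted p = 0.0229). T cells had a log2 difference of −4.08 (SE 0.65, adjusted p = 3.64e-06), NK cells of −2.58 (adjusted p = 0.00112) and dendritic cells of −2.88 (adjusted p = 0.0174). B cells and the Tnfrsf4/Ctla4-led cluster had 0 UMIs.

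The receptor genes had their highest levels in T cells and the Tnfrsf4/Ctla4-led cluster, and B cells had 0 UMIs of all 4 in every library. Dendritic cells of the libraries labelled shMib2 were at 21.1 and 12.6 CPM for Ctla4, 14.1 and 12.6 for Cd28, 10.5 and 10.8 for Icos and 14.1 and 5.39 for Pdcd1, from 3 to 7 UMIs each. Against B16-F10 cells, which had at most 29 UMIs of any receptor, all 4 were called higher in T, NK and dendritic cells. Of all genes 35.1%, 32.7% and 30.7% were called higher there. In fibroblasts, pericytes or smooth muscle cells and erythrocytes 3 were (36.9%, 21.2% and 5.34% of all genes). In mononuclear phagocytes and plasmacytoid dendritic cells 1 was (15.1% and 22.4%), and in B and endothelial cells 0 (24.1% and 15.8%). The 9 Pdcd1 UMIs of pericytes or smooth muscle cells in shMib2 replicate 2 came from 1 cell. Ctla4 was at 45.3, 154 and 143 CPM in T cells (log2 fold change 1.61, SE 0.41, edgeR adjusted p = 0.0688) and at 687, 1197 and 1152 in the Tnfrsf4/Ctla4-led cluster, which it helped to name. Icos, the costimulatory receptor of ICOSL, was at 45.3, 108 and 113 in T cells (1.20, SE 0.45, adjusted p = 0.368). Pdcd1, which encodes PD-1, was at 113, 163 and 170 (0.46, SE 0.31, adjusted p = 0.646) and Cd28 at 272, 325 and 260 (−0.01, SE 0.23, adjusted p = 0.999). None of the 4 receptors and none of the 3 members tested passed in T cells, where 41 genes rose and 65 fell of 8164 (1.3%). The Cd274 difference there was 1.59 (SE 1.24, adjusted p = 0.672). In NK cells neither of the 2 members tested passed, where 14 of 6431 genes (0.218%) did, with Cd274 at a log2 difference of 0.44 (adjusted p = 0.936). In B cells no member had enough UMIs, and edgeR called 0 of 1078 genes (0%), with 41 at an unadjusted p under 0.05 and 0 by DESeq2. In simulated data a log2 change of 1 was found for 9 of 100 genes in T cells, 19 in NK cells and 21 in B cells, against 88 in B16-F10 cells. In B16-F10 cells of the deposited data Irf1 (log2 fold change 1.46, edgeR adjusted p = 0.102) and Ctla4 (3.51, adjusted p = 0.156) did not pass. The simulated shares therefore do not show a member without a call to be unchanged.

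For each member the genes with the most similar level were sought over 25 sums of a named class in a library, by Pearson's r of log2(CPM + 1) among 10767 genes. These points share libraries and depth, so r is a description. Cd274 went with Ifi213, an interferon-inducible gene (r = 0.859), Slamf7 (0.858) and Ptger4 (0.836). Cd86 went with Btla (0.892), Spi1, the myeloid transcription factor PU.1 (0.859), and Wdfy4, needed for cross-presentation (0.846). Cd80 went with Scin (0.831), Cacna1s (0.814) and Tnfrsf4 (0.777), and Pdcd1lg2 with E130215H24Rik (0.761), B3gnt7 (0.721) and Gm30054 (0.707). Cd276 went with Smtn, a smooth muscle gene (0.924), Nlgn2 (0.920) and Lamb2, a laminin chain (0.916), and Icosl with Gm43305 (0.804), Gm43813 (0.796) and Stard10 (0.783).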

How the data were processed

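Per the labels, the authors aligned reads of 3 single-cell libraries with Cell Ranger 4.0.0 to mm10 and deposited raw UMI counts per gene and barcode, without normalization, for 9558, 9428 and 8388 barcodes of shCtrl and shMib2 replicates 1 and 2. These held 243926188, 190904274 and 203298455 UMIs, with a median of 25181, 21441 and 11813.5 per barcode. The members and all gene lists were chosen with earlier results of these data known, so no count over a list is independent support.

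Barcodes with under 200 genes or over 20% mitochondrial UMIs were left out (741, 860 and 1105), as were predicted doublets (622, 587 and 424), found by simulated doublets at a rate of 0.8% per 1000 barcodes. Counts were scaled to 10000 per cell, log transformed and clustered by Leiden at resolution 1 (2000 variable genes, 30 components, 20 neighbors), without the members. Clusters were named by marker lists, and the others go by their leading genes.

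UMIs were summed per class and library, since cells are not replicates. shMib2 was compared with shCtrl in classes of at least 20 cells per library, and classes with B16-F10 cells in a fit with library as a block, by edgeR's quasi-likelihood test (TMM, filterByExpr) with Benjamini-Hochberg adjustment over all genes tested and a threshold of 0.05. Each library pools mice, so p-values measure only the spread between libraries. For shMib2 against shCtrl that spread, and the SE, come from the libraries labelled shMib2 alone, since shCtrl has 1 library. Shares of cells carry Wilson 95% intervals in the tables, and limits for 0 UMIs are 3 counts. Intervals and limits cover counting error only. Genes named were the 6 members, Mib2, the 4 receptors, up to 4 genes per list with the lowest p, and the 3 genes most alike each member. Of those for interferon gamma signaling, 1 gene is not reported here, so its list is given by the other 3. H2-DMa, Ifng, Vsir and the leading genes of clusters fall outside this rule and were named after their values were seen.

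Alternatives were DESeq2 and its size factors, other filters on genes and cells, other clusterings, a marker gate, leaving out libraries, no library block, and 2 added after seeing the data. The tests were tried on simulated data, where a log2 change of 2 was found for 97 of 100 genes in B16-F10 cells, 50 in T cells and 53 in NK cells. The simulated shares do not show a gene without a call to be unchanged. Promoters came from RefSeq for 5 of the 6 members. Used were Python 3.11.15, SciPy 1.17.1, leidenalg 0.10.2, R 4.3.3, edgeR 4.0.16 and DESeq2 1.42.0.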

Additional observations from a re-analysis of the deposited data

How the results depend on the processing

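No called value changed direction under the alternatives run. Genes called in B16-F10 cells, shMib2 against shCtrl, numbered 45, and 254 with DESeq2 (190 higher, 64 lower), 0 with no filter on low counts, 73 with no filter on cells, 109 with doublets kept, 100 at resolution 2 and 7 with the marker gate. They numbered 79 in cells with no UMI of a T or NK cell marker or of Ptprc and 11 without the Ifit1-led cluster, both chosen after seeing the data. In T cells the 106 became 67 with DESeq2 size factors, 4 with DESeq2, 63 with at least 50 UMIs, 17 with doublets kept, 32 at resolution 2 and 29 with the gate. In NK cells the 14 became 1 with DESeq2, 2 with no cell filter, 2 with a strict one and 3 with the gate. In B cells the 0 became 3 with size factors, 1 with no filter on low counts, 10 with no cell filter and 3 with doublets kept. Calls of classes against B16-F10 cells numbered 26930 of 59530 tests in 10 classes. They numbered 46843 with no filter on low counts (more genes tested) and 8097 with the gate (fewer classes). With a library left out, the lowest number was 6713 of 16938 tests in 6 classes, without shMib2 replicate 2. The highest was 33012 of 88510 tests in 10 classes, without shCtrl. Beyond these constructions, the cause was not tested.

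No paired analysis was possible because there was 1 shCtrl library against 2 labelled shMib2, and the labels pair none of them. The fit of classes without the library block called 26812. Cd274 in plasmacytoid dendritic cells lost its call in 6 alternatives (adjusted p from 0.0605 to 0.284), and in fibroblasts gained one in 5 (0.000366 to 0.0272). Leaving out shMib2 replicate 1 or 2 gave log2 fold changes of Cd274 in B16-F10 cells of 1.06 and 0.98, with no test. Few immune and stromal cells in shCtrl limit every comparison outside B16-F10 cells.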
